A study of Mus musculus with 15 samples.

Results

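Ceruloplasmin and other genes of iron handling were followed across the whole series: *Cp* (ceruloplasmin) with *Heph*, *Slc40a1*, *Slc11a1*, *Slc11a2*, *Tfrc*, *Trf*, *Fth1*, *Ftl1* and *Hmox1*. They are 10 of 55450 annotated mouse genes, of which 24650 had an assembled transcript in some library. *Cp* was picked because its higher level in tumors given 100 and 200 µg of antibody was already known, so its levels over the doses are described here without a test, and the other 9 were picked for their roles. RNA sequencing was made from 15 samples of C57BL/6 mice, 3 in each of 5 groups. In 4 groups the tissue was a tumor of GL261, a glioma line of the mouse, from animals given per dose 0, 50, 100 or 200 µg of the antibody B20.4.1.1 against VEGF-A, a growth factor that blood vessels depend on. The fifth was healthy brain. Treatment began on day 10 after implantation and was given every 3 days until the endpoint, mice were perfused with saline, and total RNA of whole tissue was sequenced. The labels do not say that the samples of a group came from separate animals, so a p-value weighs a difference against the spread of these samples, which may be technical. Nor do they say how tumor was parted from surrounding brain.

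Iron crosses membranes as the ferrous ion and travels in blood as the ferric ion, so its movement needs carriers and enzymes that oxidise or reduce it. Ferroportin (*Slc40a1*) lets iron out of a cell, and the copper enzymes ceruloplasmin and hephaestin (*Heph*) oxidise it so that transferrin (*Trf*) can bind it. The transferrin receptor (*Tfrc*) takes it in and the divalent metal transporters (*Slc11a1*, *Slc11a2*) move it out of the endosome or phagosome. The ferritin heavy and light chains (*Fth1*, *Ftl1*) store it, and heme oxygenase (*Hmox1*) frees it from heme. In the brain a membrane-anchored form of ceruloplasmin sits on astrocytes, while the liver secretes the plasma form.

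The value of a gene in a library is in FPKM, a count of sequenced fragments scaled by transcript length and by library size. The deposited transcripts lying on a gene's exons were added up, each as its FPKM times the part of those exons it covered. Tests were made with limma on log2(FPKM + 1) over all genes with a mean of at least 1 FPKM, fold changes are on that scale, and a gene was called at a Benjamini-Hochberg adjusted p under 0.05. Each library was assembled on its own by the authors, so a gene can be listed at 0 because it was not assembled.

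The 2 forms of *Cp* part after exon 18, which ends at position 19989218 of chromosome 3 (mm10, plus strand). The sequences below show what a transcript must hold to be counted as either form: in each, the lower case is the last 30 bases of exon 18 and the capitals are the coding bases that only that form has, up to and including the stop codon, at the coordinates given. The letters are those of the GENCODE M21 transcripts of mm10.
Cp secreted, chr3:19992509-19992525 (+): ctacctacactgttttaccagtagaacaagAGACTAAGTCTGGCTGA
Cp membrane-anchored, chr3:20005467-20005558 (+): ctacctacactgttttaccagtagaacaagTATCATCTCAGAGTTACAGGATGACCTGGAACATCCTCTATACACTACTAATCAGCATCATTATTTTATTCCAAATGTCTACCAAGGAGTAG
The secreted form reads 17 bases of its own and encodes 1061 residues. The anchored form reads 92 bases of its own and encodes 1085 residues.

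Iron response elements are hairpins in the untranslated parts of mRNAs that the iron regulatory proteins bind when iron is low. They block translation from the 5′ end and protect the mRNA from the 3′ end, so the same signal lowers ferritin and ferroportin synthesis and raises that of the transferrin receptor. The loop was searched as CAGTGN, with a C placed 5 bases before it and with the 5 bases on either side able to pair (G with U allowed), in the sense strand of untranslated regions only. A match was held by 4 of the 10 genes and by 0.71% of the 21840 genes searched. A match is a description of the letters and is not a measured site. In the sequences below, from the same transcripts, the capitals mark the loop.
Fth1 5′ UTR, chr19:9982732-9982760 (+): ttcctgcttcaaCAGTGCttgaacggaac
Ftl1 5′ UTR, chr7:45459779-45459807 (-): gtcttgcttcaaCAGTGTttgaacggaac
Slc40a1 5′ UTR, chr1:45925465-45925493 (-): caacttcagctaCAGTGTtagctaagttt
Tfrc 3′ UTR, chr16:32631219-32631247 (+): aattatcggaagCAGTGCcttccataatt
Tfrc 3′ UTR, chr16:32631598-32631626 (+): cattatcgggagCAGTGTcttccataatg
Tfrc 3′ UTR, chr16:32631663-32631691 (+): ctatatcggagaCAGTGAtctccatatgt
Tfrc 3′ UTR, chr16:32631710-32631738 (+): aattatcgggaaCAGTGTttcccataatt
*Tfrc* held 4 of these matches, and *Cp* held none in its untranslated regions.

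*Cp* (ENSMUSG00000003617.16, chromosome 3, 19957054 to 20009145) had 5.41, 3.94 and 8.27 FPKM in untreated tumors, 6.57, 6.70 and 6.35 FPKM at 50 µg, 22.5, 17.9 and 27.6 FPKM at 100 µg, and 43.6, 38.4 and 36.6 FPKM at 200 µg. All 6 libraries at the higher doses lay above all 6 at 0 and 50 µg, and the 200 µg libraries lay above those at 100 µg. The mean was 5.87 ± 2.20 FPKM in untreated tumors, then 6.54 ± 0.18, 22.7 ± 4.83 and 39.5 ± 3.64 FPKM at 50, 100 and 200 µg (SD, n = 3 each). The ratio of means to untreated tumor was 1.11 at 50 µg, 3.86 at 100 µg and 6.73 at 200 µg. On the log2 scale the difference from untreated tumor was 0.18 at 50 µg, with a 95% interval of -0.34 to 0.70, then 1.81 at 100 µg and 2.60 at 200 µg (SE 0.24 each). With the unweighted FPKM of transcripts sharing an intron with the gene, it was smaller, 1.21 at 100 µg and 1.97 at 200 µg. The longest *Cp* transcript covered 42.1%, 35.3% and 69.4% of the exonic length in untreated tumors, against 86.4%, 89.1% and 65.3% at 200 µg. Weighting by the part covered lowers a value assembled in pieces, and its part in the differences was not tested. By the libraries' estimated depth, about 5683 to 8265 fragments lay behind *Cp* at 200 µg and about 479 to 952 in untreated tumors.

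In healthy brain *Cp* was low, so untreated tumor already differed from it. *Cp* had 5.41, 3.94 and 8.27 FPKM in untreated tumors, against 1.30, 1.18 and 1.17 FPKM in brain, and the groups did not overlap. *Cp* rose by 1.59 (SE 0.25) on the log2 scale in untreated tumor (limma, adjusted p = 0.0019). In this comparison 60.7% of 16340 genes were called, 32.7% as higher and 28.0% as lower, so a call by itself is common. The call was lost when only the FPKM of transcripts sharing an intron with the gene were added up without weighting by length (1.23, adjusted p = 0.114). The 3′ end of *Cp* overlaps *Hps3* on the other strand. Of the *Cp* value, 1.77% came from transcripts that covered a share of at least 0.2 of the exons of both *Cp* and another gene. Transcripts covering less of either gene are not in that figure, so the part of *Hps3* in the value is not bounded by it.

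**Figure D1:**
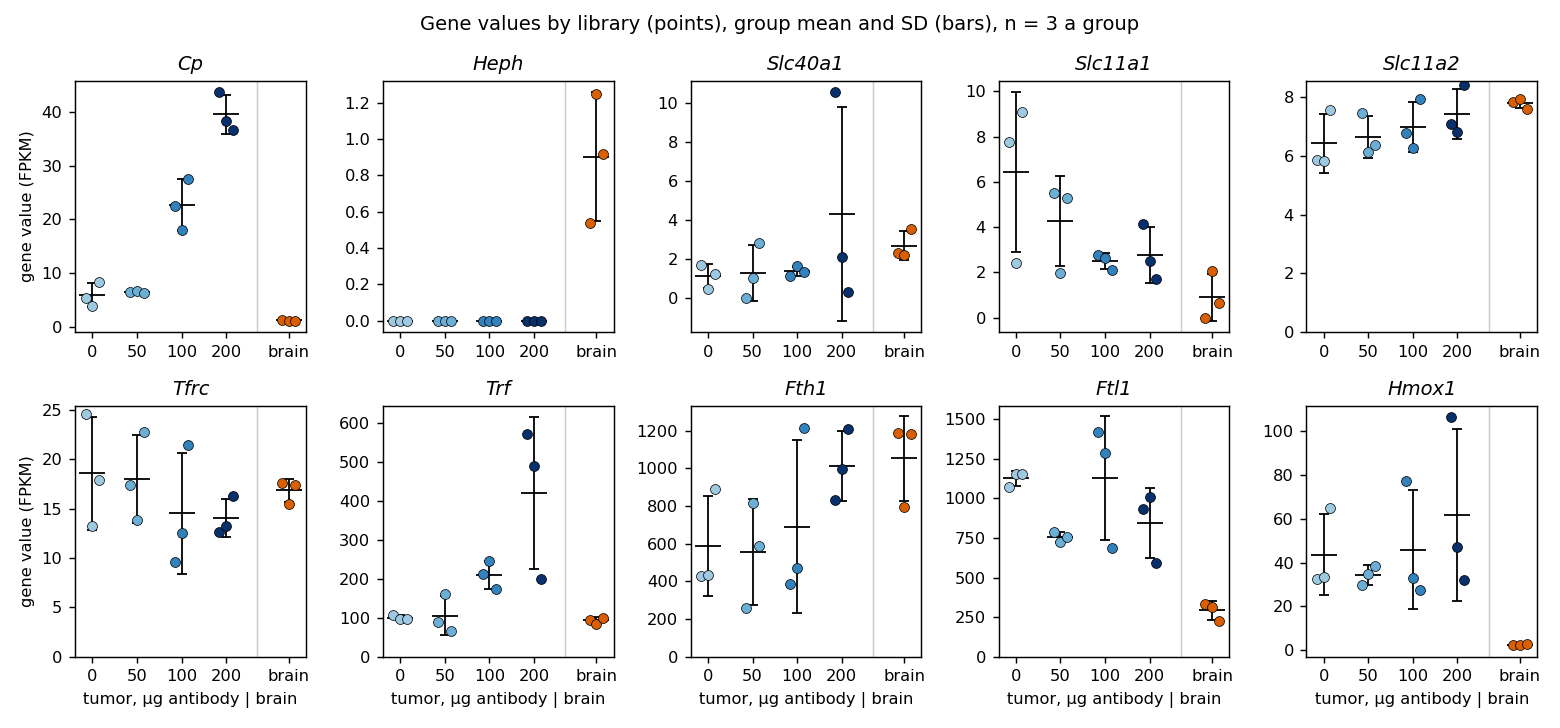
Gene values in FPKM (vertical axes, each on its own scale) of the 10 genes in tumors by µg of antibody per dose and in healthy brain; points are libraries, bars the mean and SD of 3. Cp climbs to between 36.6 and 43.6 FPKM at 200 µg, Trf reaches 572 FPKM in 1 library, and Heph is listed at 0 in all 12 tumor libraries.

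The secreted form made up most of the *Cp* RNA that could be assigned to a form. Transcripts joining exon 18 to the secreted end summed to 11.4, 6.46 and 12.4 FPKM in untreated tumors, 9.54, 9.56 and 14.8 FPKM with 50 µg, 29.4, 21.9 and 43.2 FPKM with 100 µg, and 40.5, 49.8 and 56.3 FPKM with 200 µg. These are sums of transcript FPKM without weighting by length, so they can exceed the gene values. They did in every tumor library except replicate 1 at 200 µg, at 40.5 against 43.6 FPKM. All 12 tumor libraries held this form.

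The anchored form was assembled in 5 of the 12 tumor libraries. It had 1.03 FPKM in untreated replicate 2, 4.59 and 3.68 FPKM in replicates 1 and 2 at 100 µg, and 20.9 and 6.01 FPKM in replicates 1 and 2 at 200 µg. Its share of the 2 forms was 13.7% in that untreated library, 13.5% and 14.4% in those at 100 µg, and 34.0% and 10.8% in those at 200 µg. It was listed at 0 in replicate 3 of both higher doses, at all of 50 µg and in the other untreated libraries. A minor form in a gene of low FPKM may go unassembled, so the missing forms at low levels are no measure of its share.

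In healthy brain the form could be read in few transcripts. Replicate 1 held only the anchored junction (3.24 FPKM), replicate 2 only the secreted one (2.79 FPKM), and replicate 3 neither. Read by the last exon instead of the junction, the anchored share was 43.4% in replicate 1 and 41.7% in replicate 2. Those shares lay above the tumor shares of 0 to 34.0%, in 2 libraries with *Cp* near 1 FPKM, and no test was made.

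**Figure D2:**
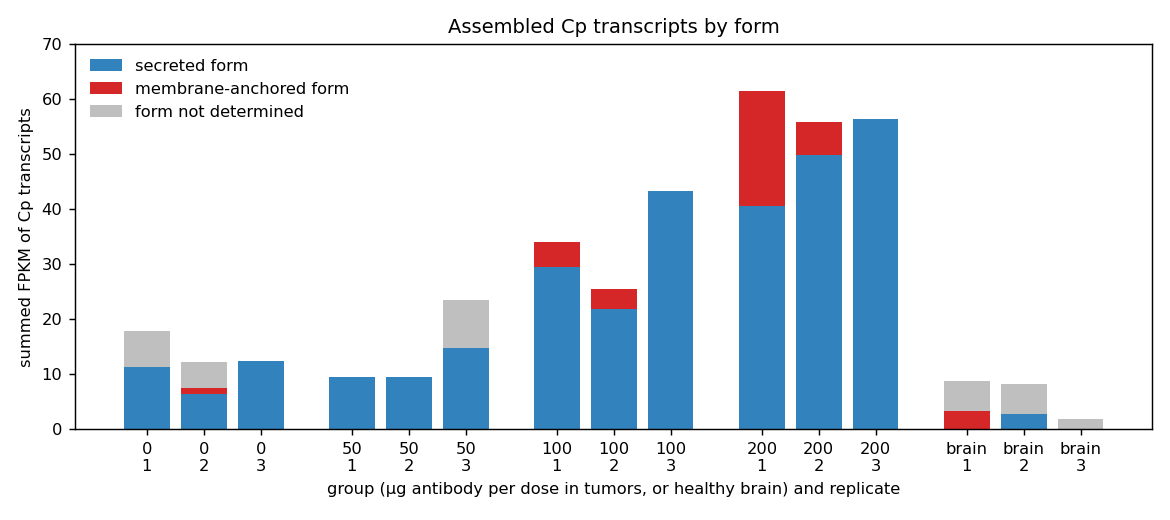
Summed FPKM of assembled Cp transcripts in each library (groups by µg per dose, then healthy brain; replicate below), split into secreted, membrane-anchored and not determined by the junction after exon 18. The secreted form fills most of every tumor bar, and the anchored form is largest in replicate 1 at 200 µg, at 20.9 FPKM.

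Markers of other cell types that tissue could hold were read beside *Cp*. Of 6 hepatocyte and acute phase markers, *Alb*, *Apoa1*, *Saa1*, *Orm1* and *Fgb* were listed at 0 in all 15 libraries, and *Saa3*, the exception, had 2.09, 1.01 and 1.46 FPKM at 200 µg against 1.44, 1.38 and 9.36 FPKM in untreated tumors. The 10 choroid plexus markers summed to 3.09 to 4.09 FPKM at 200 µg, with 6 of them at 0 including the defining *Ttr*, against 6.85 to 52.0 FPKM in untreated tumors and 15.2 to 1303 FPKM in brain. Without *Ttr* the other 9 summed to 3.09 to 4.09 FPKM at 200 µg against 2.30 to 3.31 FPKM in untreated tumors, and *Aqp1* and *Cldn2* had higher means at 200 µg. The 8 astrocyte markers summed to 103 to 169 FPKM at 200 µg, against 68.7 to 123 FPKM in untreated tumors and 479 to 572 FPKM in brain. Of these, 3 had a higher mean at 200 µg than in untreated tumors, *Slc1a3* the most abundant of them at 75.5 against 36.3 FPKM, while *Gfap*, *Aldoc*, *Slc1a2* and *Aldh1l1* had a lower one. The 7 markers of meningeal fibroblasts summed to 18.9 to 24.5 FPKM at 200 µg, against 15.8 to 24.7 FPKM in untreated tumors, with a higher mean at 200 µg for 6 of them. The 9 monocyte and macrophage markers summed to 225 to 303 FPKM at 200 µg, against 92.8 to 257 FPKM in untreated tumors. *Lyz2* made up most of that sum, at a mean of 184 FPKM at 200 µg against 116 FPKM in untreated tumors, and 5 of the 9 (*Cd14*, *Cd68*, *Ccr2*, *Ms4a7* and *Adgre1*) had a lower mean at 200 µg. In whole tissue, more cells of a type and more RNA per cell cannot be told apart, and the part of choroid plexus, astrocytes, fibroblasts and macrophages in the *Cp* levels was not tested.

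Genes whose level followed that of *Cp* most closely were ranked by Pearson's r of log2(FPKM + 1) over the 12 tumor libraries, among 5315 genes with a mean of at least 5 FPKM and no overlap with another gene. The closest were *Smad3* (r = 0.973), *Slc1a4* (0.960), *Cldn12* (0.959), *Tm4sf1* (0.957) and *Pcdh18* (0.952). *Smad3* carries TGF-beta signals to the nucleus. It averaged 9.98 ± 0.97 FPKM at 200 µg against 4.10 ± 0.93 FPKM in untreated tumors (SD, n = 3 each). *Slc1a4*, a neutral amino acid carrier, averaged 30.8 ± 0.89 FPKM at 200 µg against 12.4 ± 0.66 FPKM in untreated tumors. These libraries share dose groups, depth and assembly, so r describes a shared step with dose. Of the other iron genes, *Trf* lay closest to *Cp* (r = 0.86 over the same 12 libraries), followed by *Slc11a2* (0.58) and *Fth1* (0.57), while *Slc11a1* had -0.46.

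*Heph* (ENSMUSG00000031209.14, chromosome X, 96455359 to 96574485), the membrane-bound ferroxidase related to ceruloplasmin, was listed at 0 in all 12 tumor libraries. In healthy brain it had 0.54, 1.25 and 0.92 FPKM, so the groups did not overlap. No fold change is given, and with a mean under 1 FPKM it was not tested. Its exons overlap those of *Hsf3*. The list of iron genes also holds *Hephl1*, the third ferroxidase of this family, which was listed at 0 in all 15 libraries.

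*Slc40a1* (ENSMUSG00000025993.10, chromosome 1, 45908068 to 45926523, minus strand), the only known iron exporter, had 1.70, 0.44 and 1.24 FPKM in untreated tumors, against 2.31, 2.20 and 3.54 FPKM in healthy brain. Every untreated tumor lay below every brain library. It fell by 0.82 on the log2 scale in untreated tumor (SE 0.28, limma, adjusted p = 0.0446). The call held in only 1 of 6 fits that left out a library, with adjusted p from 0.0337 to 0.114, being kept without untreated replicate 1. Over the doses it had 0, 1.04 and 2.83 FPKM at 50 µg, 1.13, 1.62 and 1.34 FPKM at 100 µg, and 10.5, 2.09 and 0.30 FPKM at 200 µg. Replicate 1 at 200 µg stood far above the other 2 of its group, and the difference from untreated tumor was 0.80 (SE 0.69, limma, adjusted p = 0.512). A gene this low was assembled in pieces, the longest transcript covering between 27.2% and 96.1% of its exonic length where it was found.

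Of the uptake genes, *Slc11a1* was the one called between untreated tumor and brain. *Slc11a1* (chromosome 1, 74375195 to 74386062), the phagosome transporter of macrophages, had 7.75, 2.43 and 9.11 FPKM in untreated tumors, against 0, 2.04 and 0.65 FPKM in healthy brain. The lowest tumor lay just above the highest brain library. It rose by 1.97 (SE 0.56) on the log2 scale (limma, adjusted p = 0.0215), and the call held in 2 of 6 fits that left out a library, with adjusted p from 0.0104 to 0.0719. Those 2 were the fits without brain replicate 2 or untreated replicate 2. With a mean of 0.90 FPKM in brain, *Slc11a1* passed the filter only through the tumors, so nothing is read from its call. The 9 monocyte and macrophage markers moved the same way, summing to 92.8 to 257 FPKM in untreated tumors against 16.97 to 35.2 FPKM in brain, and their part in this gene was not tested. Within tumors *Slc11a1* had 5.53, 1.99 and 5.30 FPKM at 50 µg, 2.77, 2.64 and 2.11 FPKM at 100 µg, and 4.13, 2.51 and 1.68 FPKM at 200 µg. The difference from untreated tumor at 200 µg was -0.88 (SE 0.43, limma, adjusted p = 0.249). There the same 9 markers summed higher, to 225 to 303 FPKM against 92.8 to 257 FPKM in untreated tumors, though 5 of them had a lower mean.

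*Slc11a2* (chromosome 15, 100387898 to 100425072), the endosomal and intestinal iron transporter, was the steadiest of the 10. It lay between 5.84 FPKM in an untreated tumor and 8.40 FPKM at 200 µg, and averaged 7.44 ± 0.85 FPKM at 200 µg against 6.43 ± 1.00 FPKM in untreated tumors (SD, n = 3 each). The 95% interval of its log2 difference at 200 µg was -0.18 to 0.56. Untreated tumor differed from brain by -0.25 (SE 0.16, limma, adjusted p = 0.213). Its exons overlap *Gm5475*.

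*Tfrc* (chromosome 16, 32608920 to 32632794), which brings transferrin-bound iron into dividing cells, had 12.6, 13.3 and 16.3 FPKM at 200 µg, against 24.6, 13.3 and 17.9 FPKM in untreated tumors. The groups overlapped. The log2 difference was -0.34 (SE 0.31) with an interval of -1.03 to 0.34 (limma, adjusted p = 0.526). Untreated tumor and brain differed by 0.10 (SE 0.24, limma, adjusted p = 0.751), although the 5 dividing-cell markers summed to 157 to 274 FPKM in untreated tumors against 0.68 to 2.23 FPKM in brain.

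*Trf* (ENSMUSG00000032554.15, chromosome 9, 103204001 to 103230444, minus strand), the iron carrier of plasma that oligodendrocytes also make in the brain, was the other gene of the 10 that rose with dose. It had 108, 96.2 and 96.7 FPKM in untreated tumors, 89.5, 161 and 66.2 FPKM at 50 µg, 213, 245 and 173 FPKM at 100 µg, and 572, 489.5 and 200.0 FPKM at 200 µg. All 6 libraries at the higher doses lay above all 6 at 0 and 50 µg, but replicate 3 at 200 µg lay within the range at 100 µg. *Trf* rose by 1.92 (SE 0.40, interval 1.04 to 2.81) on the log2 scale at 200 µg (limma, adjusted p = 0.0369), and the slope over the 12 tumors was 1.05 per 100 µg (SE 0.20, limma, adjusted p = 0.012). At 100 µg the difference was 1.05 (SE 0.40) and was not called (limma, adjusted p = 0.464).

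The rise of *Trf* at 200 µg kept its direction under every alternative, with log2 values from 1.63 to 2.39, but its call held in 13 of 24. Of the 12 fits that left out a library, the call was lost without untreated replicate 1, 2 or 3, 100 µg replicate 1, or 200 µg replicate 1 or 2, with adjusted p from 0.0533 to 0.143. It was also lost with a term for the 4 tumor libraries assembled in fewest pieces, which are replicate 3 at 100 µg and all of 200 µg (2.32, adjusted p = 0.307). Among the other 8 tumor libraries, *Trf* had 213 and 245 FPKM at 100 µg against 96.2 to 108 FPKM in untreated tumors, and *Cp* had 22.5 and 17.9 FPKM against 3.94 to 8.27 FPKM.

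Healthy brain had 94.8, 85.1 and 100.4 FPKM of *Trf*, and untreated tumor differed from it by 0.10 (SE 0.15, limma, adjusted p = 0.572). Of the 10 oligodendrocyte markers, 8 had a lower mean at 200 µg than in untreated tumors. The list summed to 87.0 to 87.7 FPKM at 200 µg, against 124 to 225 FPKM in untreated tumors and 891 to 959 FPKM in brain. *Trf* shares its exons with the readthrough gene *Gm20425*, so 99.4% of its value came from transcripts counted on both.

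**Figure D3:**
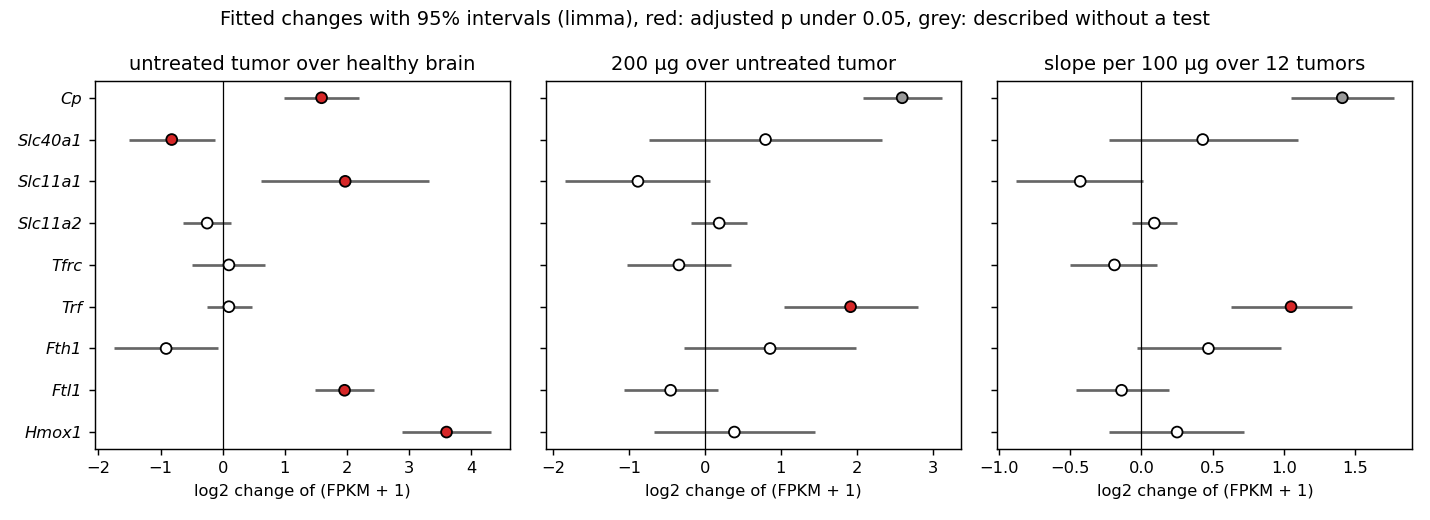
Log2 changes of (FPKM + 1) with 95% intervals for 9 genes, in untreated tumor over healthy brain, 200 µg over untreated tumor, and as the slope per 100 µg over 12 tumors; red is an adjusted p under 0.05 and grey is Cp, described without a test. Trf alone of the 8 tested genes is red in the panels on dose, at 1.92 and 1.05.

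The 2 ferritin chains differed in direction between untreated tumor and brain. *Ftl1* (chromosome 7, 45457944 to 45459884, minus strand), the light chain that helps iron settle in the ferritin core, had 1070, 1153 and 1154 FPKM in untreated tumors, against 335, 317 and 226 FPKM in brain. The groups lay far apart. *Ftl1* rose by 1.96 (SE 0.20) on the log2 scale (limma, adjusted p = 0.000254), and was called in all 14 alternatives. *Fth1* (chromosome 19, 9980598 to 9985098), the heavy chain with ferroxidase activity, had 429, 435 and 893 FPKM in untreated tumors, against 1188, 793 and 1181 FPKM in brain. One untreated tumor lay inside the brain range. The difference of -0.91 (SE 0.35) was not called (limma, adjusted p = 0.0602), and was called in 3 of 14 alternatives, among them the fit without untreated replicate 3 (-1.26, adjusted p = 0.0103).

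The ratio of light to heavy chain FPKM was 2.49, 2.65 and 1.29 in untreated tumors, against 0.28, 0.40 and 0.19 in brain. With 50 µg the ratios were 3.06, 0.89 and 1.28, with 100 µg they were 3.69, 2.75 and 0.56, and with 200 µg they were 1.12, 1.01 and 0.49. Every tumor library lay above every brain library. The sum of the chains lay between 1046 and 2047 FPKM in tumors and between 1110 and 1522 FPKM in brain.

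The *Fth1* values moved with how its transcripts were assembled. In 7 tumor libraries a transcript ran more than 1000 bp past the end of the gene, and *Fth1* there had 258 to 834 FPKM with a median of 435. In the 5 others it had 817 to 1216 FPKM with a median of 995. It also had 834 to 1216 FPKM in the 5 libraries assembled in fewest pieces, which include all of 200 µg, against 258 to 1188 FPKM in the other 10. A longer transcript has a lower FPKM for the same reads, and the part of this in the differences was not tested. At 200 µg the log2 difference from untreated tumor was 0.86 (SE 0.51) for *Fth1* and -0.45 (SE 0.28) for *Ftl1*, and neither was called (limma, adjusted p = 0.332 and 0.357). *Ftl1* overlaps *Gm10252* and the short *Gm22133*. Both chains have processed copies elsewhere in the genome, of which 5 annotated ones were listed at no more than 16.6 FPKM, and how reads shared with them were split is unknown.

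**Figure D4:**
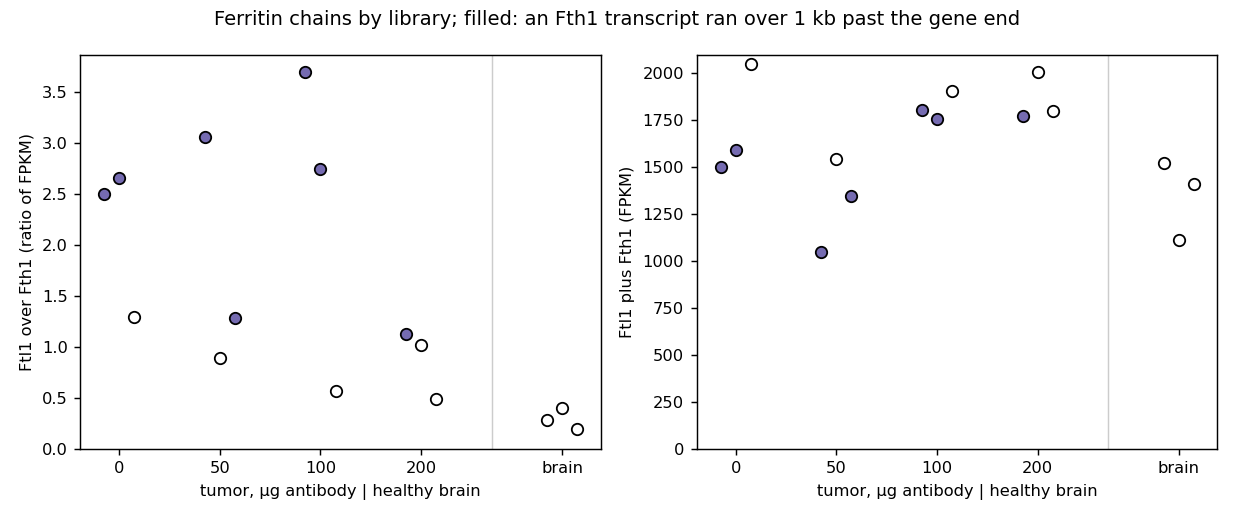
Ratio (left) and sum (right) of the FPKM of Ftl1 and Fth1 in each library, by µg of antibody in tumors and in healthy brain; filled points are libraries with an Fth1 transcript over 1000 bp past the gene end. Ratios above 2 occur only at filled points, and the 3 brain libraries lie lowest, from 0.19 to 0.40.

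*Hmox1* (ENSMUSG00000005413.8, chromosome 8, 75093621 to 75100589), the inducible heme oxygenase that opens the heme ring and frees its iron, had the largest fold of the 9 tested genes between untreated tumor and brain. It had 32.5, 33.4 and 65.1 FPKM in untreated tumors, against 2.48, 2.22 and 2.82 FPKM in brain, and rose by 3.60 (SE 0.30) on the log2 scale (limma, adjusted p = 0.000111). The ratio of means was 17.4, and the call held in all 14 alternatives. With dose it spread out within groups. It had 29.7, 34.7 and 38.5 FPKM at 50 µg, 77.3, 33.1 and 27.4 FPKM at 100 µg, and 106, 47.1 and 32.0 FPKM at 200 µg. Replicate 1 was the highest at both upper doses, the groups overlapped, and the difference at 200 µg was 0.39 (SE 0.48, limma, adjusted p = 0.655). Replicate 1 at 200 µg was also the highest library for *Cp*, *Slc40a1* and *Trf*.

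Counted together, 5 of the 9 tested genes were called between untreated tumor and brain, *Cp*, *Slc11a1*, *Ftl1* and *Hmox1* as higher and *Slc40a1* as lower, beside 60.7% of all genes. The median log2 difference of the 9 was 0.10, against 0.14 over all genes tested. *Slc11a1* is in that count although it passed the filter only through the tumors, and nothing is read from its call. At 50 µg none of the 9 and none of 14653 genes were called by limma, with 588 genes at an unadjusted p under 0.05. *Cp* is left out of the counts at the upper doses and over the trend, since it was chosen on its level there. Of the other 8, none was called at 100 µg, where 0.0887% of all genes were. At 200 µg *Trf* was called, 1 of 8, where 2.83% of all genes were, and it was again the 1 called over the dose trend, where 7.53% were. The median of those 8 was 0.29 at 200 µg, against 0.04 over all genes.

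Beyond the 10, a list of 38 further iron genes had 27 that could be tested. Between untreated tumor and brain 13 rose and 5 fell, where 32.7% of all genes were called higher and 28.0% lower. The median of the 27 was 0.50 against 0.14 over all genes. Among the calls, *Lcn2*, *Tmprss6*, *Scara5*, *Slc39a8* and *Hfe* passed the filter only through the tumors, and *Tfr2* only through brain. Nothing is therefore read from these counts or this median. *Aco1*, the iron regulatory protein that doubles as cytosolic aconitase, rose by 2.04 (SE 0.15, limma, adjusted p = 6.67e-05), with 26.3 FPKM in untreated tumors against 5.61 FPKM in brain. Its partner *Ireb2* rose by 0.77 (SE 0.16, limma, adjusted p = 0.00639). The endosomal ferrireductase *Steap3* rose by 1.37 (SE 0.15), its relative *Steap1* by 2.77 (SE 0.61) and *Pcbp2*, an iron chaperone, by 1.62 (SE 0.16). *Steap1* was listed at 0 in brain replicates 1 and 2 and had 3.55 FPKM in replicate 3. The size of its fold is therefore uncertain, and was 4.96 with a pseudocount of 0.1. *Scara5*, a ferritin receptor, rose by 1.48 (SE 0.20), and the zinc and iron carrier *Slc39a14* by 0.61 (SE 0.18).

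*Lcn2*, which traps bacterial iron carriers, had 21.6, 11.4 and 46.6 FPKM in untreated tumors and was listed at 0 in the 3 brain libraries, as was *Tmprss6*, a protease that curbs hepcidin, against 2.01, 1.72 and 2.79 FPKM in untreated tumors. Both were called higher, but being at 0 in brain they passed the filter only through the tumors, so nothing is read from those calls. *Scara5*, with a mean of 0.07 FPKM in brain, passed it the same way. Of the 5 that fell, *Bmp6*, which drives hepcidin in the liver, averaged 1.83 FPKM in untreated tumors against 6.83 FPKM in brain (limma, adjusted p = 0.00426). The others were *Slc22a17*, a lipocalin receptor, by 2.92 (SE 0.35), *Tfr2* by 1.15 (SE 0.30), *Mcoln1*, a lysosomal iron channel, by 0.88 (SE 0.22) and *Fbxl5*, the iron sensor that removes *Ireb2* protein, by 0.70 (SE 0.15). With a mean of 0.39 FPKM in untreated tumors, *Tfr2* passed the filter only through brain, so nothing is read from its call. *Ncoa4*, the receptor that sends ferritin to the lysosome, differed by 0.08 (SE 0.18) and was not called (limma, adjusted p = 0.724).

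No gene of that list was called at any single dose. The trend over dose called 2 of the 27, where 7.53% of all genes were called. *Prom2*, which exports ferritin in vesicles, had a slope of 0.59 per 100 µg (SE 0.14) and *Steap2* 0.31 (SE 0.08, limma, adjusted p = 0.033). *Prom2* had 2.11, 3.14 and 1.61 FPKM at 200 µg, against 0, 0.78 and 0.36 FPKM in untreated tumors, so both genes were low. The filter over the tumors was passed by *Prom2* only through the 200 µg libraries, so nothing is read from its call. *Aco1* differed by -0.46 (SE 0.27) and *Ireb2* by 0.60 (SE 0.27) at 200 µg, neither called (limma, adjusted p = 0.32 and 0.217).

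Of 24 genes of heme handling, 19 were tested between untreated tumor and brain, where 7 rose and 5 fell, a share near the 60.7% called over all genes. The transcription factors *Nfe2l2* and *Bach1*, an activator and a heme-sensing repressor of *Hmox1*, rose by 1.65 (SE 0.19) and 1.38 (SE 0.15), and *Blvrb* by 1.35 (SE 0.25). The heme exporter *Flvcr1* rose by 1.31 (SE 0.22). The constitutive heme oxygenase *Hmox2* fell by 1.96 (SE 0.13, limma, adjusted p = 5.59e-05), with 9.66, 10.2 and 10.2 FPKM in untreated tumors against 42.1, 40.9 and 42.9 FPKM in brain, opposite in sign to *Hmox1*. The heme carriers *Slc48a1* and *Slc46a1* fell by 1.81 (SE 0.20) and 1.07 (SE 0.28), and *Lrp1*, the receptor of hemopexin-bound heme, by 1.75 (SE 0.27).

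With dose, 1 of 20 tested heme genes was called at 200 µg, beside 2.83% of all genes. *Hp*, haptoglobin, which binds free hemoglobin, had 5.11, 4.05 and 3.30 FPKM at 200 µg, against 0 in all 3 untreated tumors. Its mean over the tumors passed the filter only through the 200 µg libraries, so nothing is read from its call. At 100 µg it had 2.82 FPKM in replicate 3 and was listed at 0 in the other 2. *Hpx*, hemopexin, stayed under 1 FPKM in all tumor libraries and was not tested there. The trend also called *Abcb6*, a mitochondrial porphyrin carrier, as lower (slope -0.29, SE 0.08, limma, adjusted p = 0.0391). Hemoglobin from blood left in the tissue varied within groups, *Hbb-bs* having 22.3, 26.0 and 139 FPKM at 200 µg against 48.8, 33.4 and 132 FPKM in untreated tumors.

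Of 20 genes of copper handling, 18 were tested between untreated tumor and brain, where 7 rose and 4 fell, again a share near the 60.7% called over all genes. The copper pump *Atp7a*, which loads ceruloplasmin with its copper, rose by 1.69 (SE 0.26), the uptake channel *Slc31a1* by 1.54 (SE 0.25), the chaperone *Atox1* by 1.61 (SE 0.34) and the metallothionein *Mt2* by 3.82 (SE 1.01). The fold of *Atp7a* was 2.92 with a pseudocount of 0.1, so its level in brain was low. Its call was lost with the unweighted sum of intron-matched FPKM (1.59, limma, adjusted p = 0.0603), and nothing is read from it. *Mt3*, the brain metallothionein, fell by 2.82 (SE 0.62), *Prnp* by 2.59 (SE 0.18) and *App* by 1.12 (SE 0.17), while *Mt1* differed by 0.29 (SE 0.38, limma, adjusted p = 0.53). *Atp7a* had 9.98, 8.05 and 7.41 FPKM at 200 µg, against 4.52, 3.79 and 3.04 FPKM in untreated tumors, without overlap. Its difference of 0.99 (SE 0.36) was not called (limma, adjusted p = 0.139).

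At 200 µg 2 of 18 copper genes were called, beside 2.83% of all genes, both lower: *Mt2* by -5.44 (SE 1.12) and *Sod1*, the copper and zinc superoxide dismutase, by -1.94 (SE 0.39), each at an adjusted p of 0.035 (limma). *Mt2* had 5.88 to 11.2 FPKM in the 5 libraries assembled in fewest pieces (all of 200 µg, replicate 3 at 100 µg and brain replicate 3), against 68.0 to 893 FPKM in the other 10. Both transcripts are short, with exonic lengths of 588 and 641 bp. Over the 666 tested protein-coding genes under 1000 bp the median log2 difference at 200 µg was -0.28, against 0.13 over the 6553 of 3000 bp or more. The part of transcript length and assembly in these values was not tested. *Ftl1*, with an exonic length of 968 bp, is itself among the short genes, while *Cp* with 5800 bp is among the long.

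Libraries differed in depth and in how fully transcripts were assembled. Estimated depth was 19.9 to 37.1 M fragments in tumors and 17.5 to 57.3 M in brain. The share of genes assembled in pieces was 5.97% to 27.8% in tumors and 5.92% to 31.4% in brain, and was under 7% in all of 200 µg, so dose and assembly are partly confounded. Oligodendrocyte, astrocyte and dividing-cell markers separated brain from tumor as the labels say. The agent tag of replicate 3 disagreed with the title at 0, 50 and 100 µg and was missing at 200 µg. Grouped by that tag, the difference of *Cp* at 100 µg was 1.40, and that of *Trf* at 200 µg 1.83 (limma, adjusted p = 0.146).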

How the data were processed

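RNA was sequenced from 12 tumor and 3 brain samples. STAR, Cufflinks and the mm10 build are named in the submitters' processing notes; not given in the sources used here are versions, settings and annotation. The authors deposited for each library its transcripts with exon coordinates and FPKM, with no gene names and no counts. Transcripts were matched to the exons of the GENCODE M21 basic annotation; strand was ignored, since spliced transcripts lay on both strands, and single-exon transcripts under 200 bp were set aside. Depth was estimated from the FPKM of long transcripts and the upper confidence limit listed with it, so it is approximate.

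Groups were taken from sample titles. Tests used limma 3.58.1 in R 4.3.3 on log2(FPKM + 1) with a filter at a mean of 1 FPKM: untreated tumor against brain over their 6 libraries, and each dose against untreated tumor and a linear slope per 100 µg over the 12 tumors, adjusted over all genes tested. The script was tested on simulated data. The genes, lists and forms were chosen with earlier results of these data known. Of the further lists, genes called (up to 6 largest a direction) and 12 fixed names could be named. Tables of proteins were not used here.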

Additional observations from a re-analysis of the deposited data

How the results depend on the processing

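The count of the iron genes called was recomputed under 14 to 24 alternatives a comparison. In the main setting 9 were tested, and in some others *Heph* entered or *Slc40a1* dropped out at the filter. It stayed at 0 for 50 µg throughout. For untreated tumor against brain (5) it was 3 of 10 with the unweighted sum of intron-matched FPKM (*Ftl1*, *Hmox1* and *Heph*). *Heph*, listed at 0 in all tumor libraries, passed the filter there only through brain, so nothing is read from its call. The 5 of the main setting hold *Slc11a1*, which passed it only through the tumors. The count was 3 with a pseudocount of 0.1, and 3 to 4 over 6 fits leaving out a library. For 100 µg (1) it was 0 with the unweighted sum, on the gene's strand only, by the agent tag, with the 6 libraries of the 2 groups only or with a replicate block, and 0 to 1 over 12 fits leaving out a library. For 200 µg (2) it was 0 with the unweighted sum or the term for the 4 libraries in fewest pieces, 1 with a pseudocount of 0.1, on the gene's strand or by the agent tag, and 1 to 2 leaving out a library. For the trend (2) it was 1 by the agent tag, 0 with that term and 1 to 2 leaving out a library. The causes of these differences were not tested. The 1 gene counted at 100 µg is *Cp*, and the 2 at 200 µg and over the trend are *Cp* and *Trf*. *Cp* was chosen on its level at these doses, so nothing is read from whether it is called. Without *Cp* the main count was 0 at 100 µg and 1 at 200 µg and over the trend. The call of *Trf* held in 13 of 24 alternatives at 200 µg and in 19 of 23 over the trend. At 100 µg the log2 difference of *Cp* lay between 1.60 and 2.05 over the 12 fits leaving out a library. Over all 24 alternatives it ran from 1.21 to 2.05 at 100 µg and from 1.97 to 2.90 at 200 µg. No value that was called changed sign.

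Scaling by median of ratios moved the median of all genes in untreated tumor against brain to -0.06, against 0.14, called *Fth1* lower (-1.15, limma, adjusted p = 0.0314) and turned the uncalled differences of *Trf* and *Tfrc* to -0.13. Over all alternatives the uncalled difference of *Tfrc* ran from -0.13 to 1.23 against brain and from -1.25 to -0.13 at 200 µg. That of *Fth1* at 200 µg ran from -0.66 to 1.21, also uncalled throughout. Using the exons of all GENCODE transcripts, chosen after seeing the data, gave 4 calls in that comparison. *Slc40a1* fell below the filter there and was not tested, as also with transcripts on the gene's strand only. Taking the *Cp* form from the last exon gave an anchored share of 43.4%, against 100%, in brain replicate 1 and 41.7%, against 0, in replicate 2, and moved no tumor library. Replicate numbers did not pair the samples: deviations of same-numbered libraries correlated from -0.08 to 0.10 over 18 pairs. The replicate block lowered the count of all genes called to 9165, against 9922, for untreated tumor, to 213, against 415, for 200 µg, and to 0, against 13, for 100 µg. Counts were not used here, so depth is only estimated and no counting interval is given for low values such as those of *Heph* and *Slc40a1*.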
